A study of Homo sapiens with 24 samples.

Results

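The dopaminergic neuron identity genes are 10 genes that mark and run the dopamine system of the midbrain, namely TH, DDC, SLC6A3, SLC18A2, GCH1, ALDH1A1, NR4A2, LMX1B, FOXA2 and EN1. They were chosen by name, as every probe whose RefSeq transcript accession belongs to one of these genes, and the rule used no measured value. Earlier results of these data were known when the members were chosen. The counts of members called below are therefore not those of a list drawn up blind to the data. The rule found 17 of 50599 unique probes on the array, all 17 of which were brighter than the negative controls on at least 3 arrays, and so all 10 genes were among the 21239 genes tested. Signals are given as normalized log2 intensity, so that a difference of 1 is a doubling, and levels of different genes or probes cannot be set against each other because each probe binds with its own strength.

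The samples were LUHMES cells, a human mesencephalic line immortalized by a v-myc gene that tetracycline switches off, grown and differentiated as 3D aggregates on a gyratory shaker. All 8 groups shared a differentiation medium with cAMP, GDNF, tetracycline and N2, and came from the same cell line. Treatment began on day 7 of differentiation with rotenone, an inhibitor of mitochondrial complex I, at 50 nM for 12 h, 50 nM for 24 h or 100 nM for 24 h, or with DMSO at the amount present in the 100 nM dose. Each of these 4 conditions was collected right after exposure, labelled day 8, or after washing out and 7 more days, labelled day 15, with 3 samples per group and 24 one-colour arrays in all. The labels do not say that the 3 samples were separate cultures, so the p-values measure the spread between these samples, which may be technical. The label of DMSO replicate 1 of day 15 places it in the vehicle group, but the scan name of that array names a 12 h exposure and does not name DMSO, so the results that use it are also given without it. Replicate 3 of 100 nM 24 h on day 15 stood apart from its group, with a residual SD of 0.451 over all genes against 0.205 to 0.312 on the other 23 arrays.

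Dopamine is made from tyrosine by tyrosine hydroxylase (TH), the rate-limiting enzyme, which needs the cofactor tetrahydrobiopterin that GTP cyclohydrolase 1 (GCH1) starts to build, and by the decarboxylase DDC. The vesicular monoamine transporter VMAT2 (SLC18A2) loads it into vesicles, the dopamine transporter DAT (SLC6A3) takes it back up from outside the cell, and ALDH1A1 clears the aldehyde that its breakdown leaves. The transcription factors FOXA2, LMX1B, EN1 and NURR1 (NR4A2) specify and maintain midbrain dopaminergic neurons, and NURR1 is known to act on the genes of dopamine synthesis and transport.

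The promoters of 4 members, with 5 start sites, were in the RefSeq promoter table (GRCh38.p14, 35116 promoters). The 250 bases before each start were searched on both strands for 4 letter strings. Those were the NURR1 element NBRE (AAAGGTCA), the cyclic AMP response element (TGACGTCA), the homeodomain core (TAATTA) and the TATA box (TATAAA). The first 2 were included since NR4A2 was among the members and cAMP was in the medium of every group. The 2 sequences that held a match are shown 5' to 3' on the strand of the gene, with the match in capitals. The DDC sequence lies at chr7:50565406-50565655 on the minus strand, just upstream of a DDC transcript start, and its capitals are an NBRE on the opposite strand, beginning 87 bases before the start. The SLC18A2 sequence lies at chr10:117240864-117241113 on the plus strand, just upstream of the transcript start, and its capitals are a cyclic AMP response element beginning 48 bases before the start.
DDC: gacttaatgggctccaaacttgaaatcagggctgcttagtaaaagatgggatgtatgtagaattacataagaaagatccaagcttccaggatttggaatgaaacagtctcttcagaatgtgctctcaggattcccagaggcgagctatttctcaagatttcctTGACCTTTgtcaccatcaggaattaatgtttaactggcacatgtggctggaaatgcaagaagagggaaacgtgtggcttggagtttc
SLC18A2: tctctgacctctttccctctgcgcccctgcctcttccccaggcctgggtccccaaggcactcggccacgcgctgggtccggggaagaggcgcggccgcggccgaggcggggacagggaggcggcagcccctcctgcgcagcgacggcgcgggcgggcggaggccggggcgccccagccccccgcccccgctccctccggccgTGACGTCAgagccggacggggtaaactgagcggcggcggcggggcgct
An NBRE was found in 1.05% and a cyclic AMP response element in 1.65% of all promoters of the same length. Neither of these was in the window of the other DDC start (chr7:50561072-50561321), of LMX1B or of ALDH1A1. Which DDC start these samples used was not tested, so the NBRE may lie at a start that they did not use. The homeodomain core and the TATA box were in no window of a member, beside 4.35% and 10.7% of all promoters. A match is a description of the letters and was not tested as a binding site.

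Before any comparison, the members were checked against background, using the mark that the scanner software gives to a spot well above its local background. TH, DDC, SLC6A3, GCH1, NR4A2, LMX1B and EN1 had at least 1 probe well above background on all 24 arrays, and all 12 of the 12 pan-neuronal genes (TUBB3, MAP2, STMN2 and others) did as well. FOXA2 was well above background on 17 of 24 arrays, ALDH1A1 on 10 and SLC18A2 on 3. SLC18A2, the VMAT2 transporter that defines monoamine-storing neurons, was measured by 1 probe. The signal of that probe was therefore at or near background in most samples, and its values below carry little information. A dim probe does not show that the transcript was absent. These are bulk RNA samples, in which fewer cells expressing a gene and less RNA per cell cannot be told apart.

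**Figure D1:**
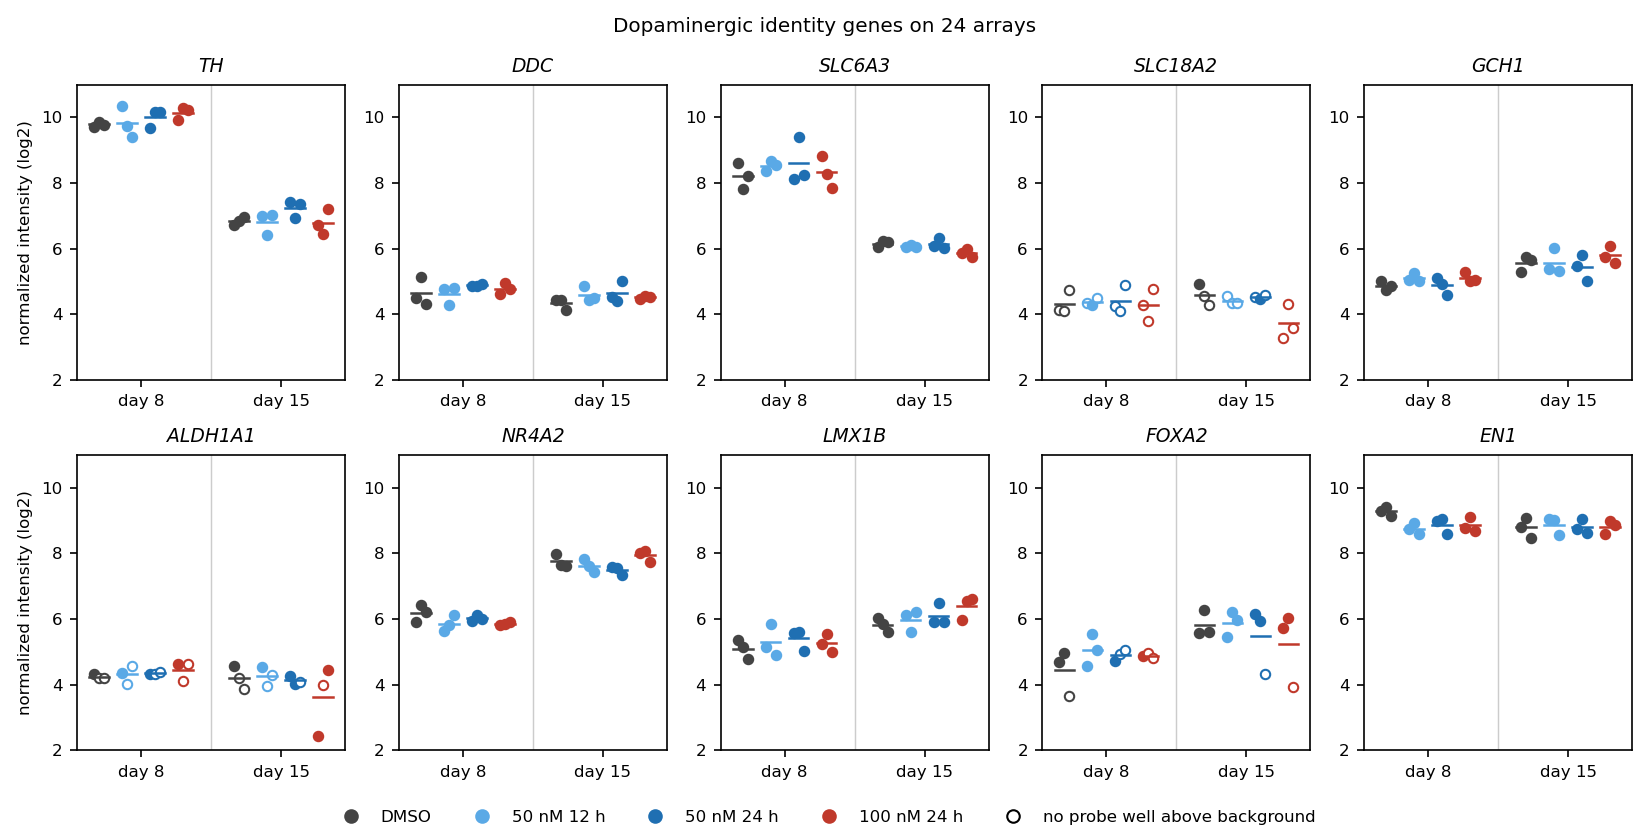
Normalized log2 intensity of the 10 genes on the 24 arrays, with days 8 and 15 side by side and colours for DMSO, 50 nM 12 h, 50 nM 24 h and 100 nM 24 h. Each point is 1 array, lines are group means (n = 3), and open points mark arrays on which no probe of the gene was well above background. TH and SLC6A3 lie lower and NR4A2 higher on day 15 in every condition, while SLC18A2 and ALDH1A1 are mostly open points.

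The first comparison asked how the genes changed with a week of further culture in vehicle alone, from day 8 to day 15. TH and SLC6A3 fell, while NR4A2, GCH1 and LMX1B rose. In all, 5 of 10 members passed an adjusted p under 0.05 in the limma fit of all genes, 3 higher and 2 lower on day 15, and each of these 5 changed by more than 1.5-fold. Of all genes tested, 23.2% passed, 10.1% higher and 13.2% lower, and 12.2% passed with a change of more than 1.5-fold. The arrays of the 2 days did not overlap for 4 members that were higher and 3 that were lower on day 15, beside 17.4% and 22.6% of all genes. The median log2 difference of the 10 members was 0.12 and that of all genes -0.04.

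TH, the rate-limiting enzyme, read 9.70, 9.87 and 9.78 on the day 8 DMSO arrays and 6.71, 6.84 and 6.96 on those of day 15. Every day 15 array was below every day 8 array. The difference was -2.94 on the log2 scale (SE 0.23, 95% interval -3.43 to -2.46, limma adjusted p = 2.24e-08), a 7.70-fold fall. SLC6A3, the reuptake transporter, read 8.62, 7.81 and 8.23 on day 8 and 6.03, 6.22 and 6.20 on day 15, again without overlap. It fell by 2.07 on the log2 scale (SE 0.27, limma adjusted p = 1.35e-05), or 4.19-fold.

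NR4A2, which encodes NURR1, moved the other way. It read 5.91, 6.43 and 6.21 on day 8 and 7.98, 7.66 and 7.63 on day 15, and the groups did not overlap. The rise was 1.57 on the log2 scale (SE 0.15, 95% interval 1.26 to 1.88, limma adjusted p = 2.35e-07), or 2.97-fold. GCH1, the cofactor enzyme, read 5.01, 4.75 and 4.85 on day 8 and 5.28, 5.76 and 5.66 on day 15. The 2 groups did not overlap, and the difference was 0.70 (SE 0.21, 95% interval 0.26 to 1.14, limma adjusted p = 0.0207). LMX1B read 5.36, 5.16 and 4.77 on day 8 and 6.04, 5.86 and 5.61 on day 15, also without overlap, a difference of 0.74 (SE 0.26, 95% interval 0.19 to 1.29, limma adjusted p = 0.0475).

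The calls of GCH1 and LMX1B were less firm than those of TH, SLC6A3 and NR4A2. With 1 array left out at a time, the last 3 passed in 6 of 6 fits, whereas GCH1 and LMX1B each passed in 2 of 6. The DMSO replicate 1 of day 15, whose scan name goes against its label, was also left out. In that fit TH (-2.88), SLC6A3 (-2.01), NR4A2 (1.46) and GCH1 (0.84, limma adjusted p = 0.0151) passed and LMX1B did not (0.63, limma adjusted p = 0.155). The share of all genes that passed there is not given, so the number of members called is not set against that of the full fit.

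Among the members that did not pass, FOXA2 differed by 1.38 (SE 0.50, 95% interval 0.34 to 2.42, limma adjusted p = 0.0516). Its day 8 arrays read 4.69, 4.97 and 3.67, with 2 of 3 well above background, and its day 15 arrays read 5.57, 6.27 and 5.62, with 3 of 3. EN1 differed by -0.49 (SE 0.18, 95% interval -0.88 to -0.11, limma adjusted p = 0.0576), from 9.31, 9.42 and 9.13 on day 8 to 8.82, 9.07 and 8.49 on day 15. Neither gene overlapped between the days. With the slide as a replicate block in place of batch correction, both passed (FOXA2 1.42, limma adjusted p = 0.0194, and EN1 -0.49, limma adjusted p = 0.002), making 7 members called beside 24.3% of all genes.

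The other 3 members gave small differences, with DDC at -0.32 (limma adjusted p = 0.274), SLC18A2 at 0.26 (limma adjusted p = 0.558) and ALDH1A1 at -0.03 (limma adjusted p = 0.971). For DDC the average hid 2 probes that disagreed. The probe for transcript NM_000790 was well above background on 23 of 24 arrays and read 6.20, 6.31 and 6.04 on day 8 and 5.04, 5.04 and 5.34 on day 15. Fitted as a single probe it fell by 1.05 on the log2 scale (SE 0.25, limma adjusted p = 0.00683), where 12.6% of all single probes passed. The other DDC probe was well above background on 3 of 24 arrays and differed by 0.41 (limma adjusted p = 0.675).

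The probes of the other genes with more than 1 probe were compared in the same way, in a fit added after the values were seen. The TH probes differed by -3.61 and -2.28, the SLC6A3 probes by -2.26 and -1.87, and the NR4A2 probes by 1.34 and 1.80 on the log2 scale, so that both probes of each gene moved together and passed. LMX1B was unlike these, since 1 probe rose by 1.45 (SE 0.44, limma adjusted p = 0.0366) and the other, which was well above background on 8 of 24 arrays, differed by 0.03 (limma adjusted p = 0.988). The GCH1 probes differed by 0.82 (limma adjusted p = 0.107) and 0.58 (limma adjusted p = 0.307), so that the gene passed as an average although neither probe passed alone.

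**Figure D2:**
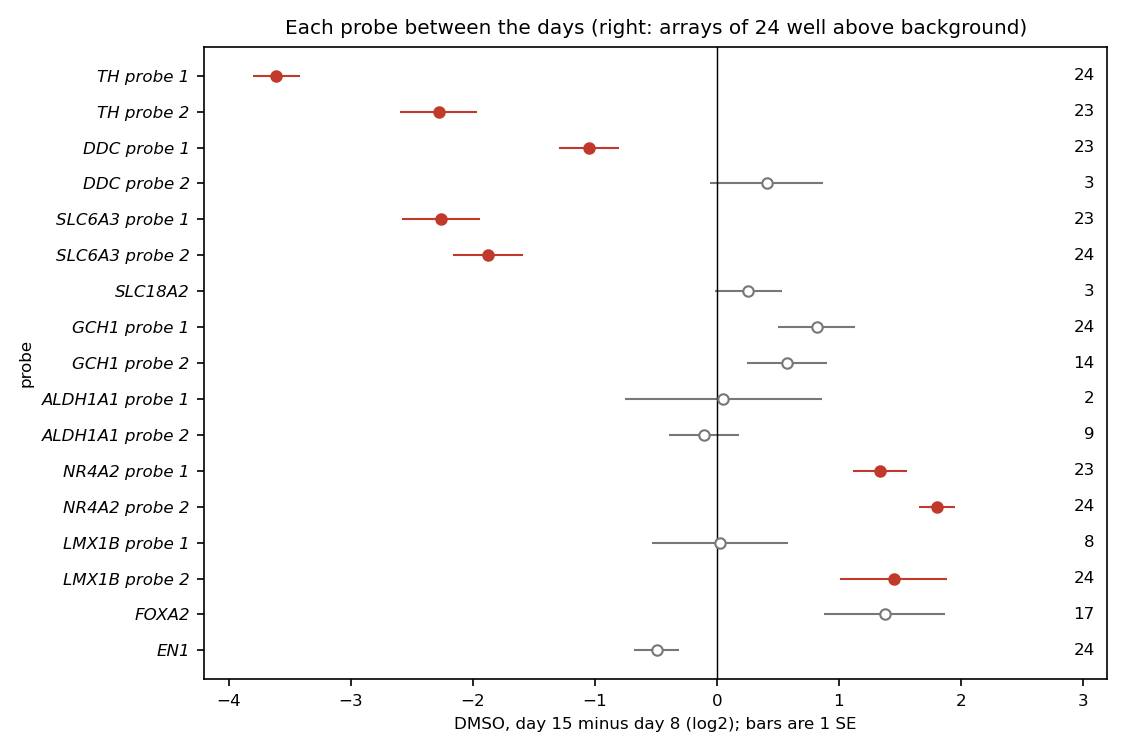
Difference between day 15 and day 8 in DMSO (log2) of each of the 17 probes, grouped by gene, with SE bars, filled where the adjusted p of the single-probe fit was under 0.05. The probes of TH, SLC6A3 and NR4A2 sit together by gene, while those of DDC (-1.05 and 0.41) and of LMX1B (1.45 and 0.03) are apart.

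The change between days was then read within each rotenone condition, in 3 comparisons added after the values were seen. They share no array with the DMSO comparison or with each other. With 50 nM for 12 h, 3 of 10 members passed (28.2% of all genes), with TH at -3.02 (limma adjusted p = 1.34e-08), SLC6A3 at -2.45 (limma adjusted p = 1.37e-06) and NR4A2 at 1.76 (limma adjusted p = 4.33e-08). With 50 nM for 24 h the same 3 genes passed (28.8% of all genes), with TH at -2.75, SLC6A3 at -2.46 and NR4A2 at 1.46. GCH1 and LMX1B lay at 0.46 and 0.68 after 12 h and at 0.55 and 0.69 after 24 h, with adjusted p between 0.0563 and 0.111 in limma. With the slide as a replicate block GCH1 (0.56, limma adjusted p = 0.0312) and LMX1B (0.71, limma adjusted p = 0.0414) passed after 24 h, making 5 members beside 29.8% of all genes.

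With 100 nM for 24 h, 5 of 10 members passed (30.6% of all genes). TH fell by 3.36 on the log2 scale (SE 0.23, limma adjusted p = 2.62e-09), or 10.3-fold, SLC6A3 fell by 2.46 and NR4A2 rose by 2.08. GCH1 rose by 0.68 (limma adjusted p = 0.0183) and LMX1B by 1.13 (limma adjusted p = 0.00252). The DDC probe for NM_000790 passed in all 3 conditions, at -0.79 and -0.76 with 50 nM for 12 h and 24 h and -1.28 with 100 nM, where 16.9%, 17.4% and 19.3% of single probes passed. ALDH1A1 at 100 nM rested on single arrays, since its difference of -0.84 (limma adjusted p = 0.0658) became -1.25 (adjusted p = 0.00595) without replicate 3 of day 15 and -0.25 (adjusted p = 0.419) without replicate 1, which read 2.44 beside 3.99 and 4.44.

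**Figure D3:**
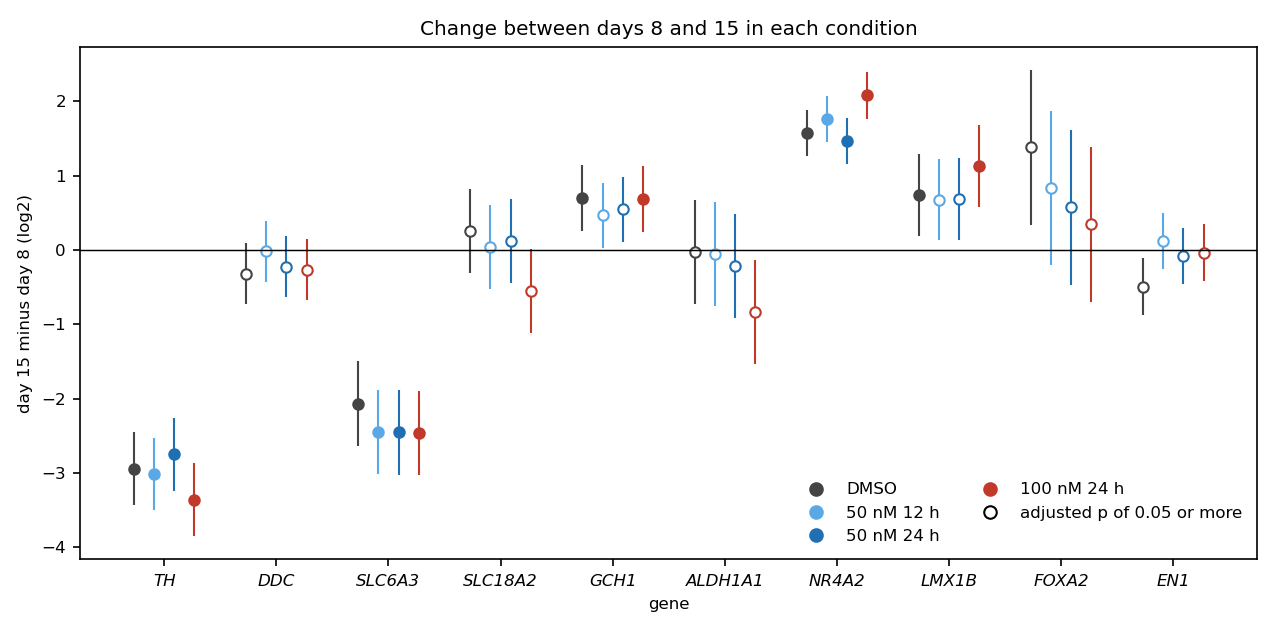
Difference between day 15 and day 8 (log2, with 95% intervals) of the 10 genes in DMSO and the 3 rotenone conditions, filled where the adjusted p was under 0.05. TH (-3.36 to -2.75) and SLC6A3 (-2.46 to -2.07) lie below 0 and NR4A2 (1.46 to 2.08) above 0 in all 4 conditions, and these intervals do not reach 0.

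Marker genes of other states and cell types also moved between the days in DMSO, and their part in the changes of TH, SLC6A3 and NR4A2 was not tested. Of 10 progenitor and proliferation genes, 1 rose and 4 fell. Among them, the cell cycle gene TOP2A was well above background on 3 of 3 day 8 arrays and 0 of 3 day 15 arrays, CCNB1 fell by 1.34 and the filament gene VIM rose by 0.67 on the log2 scale. The summed signal of that list ran from 14.14 to 14.40 on day 8 and from 14.76 to 14.95 on day 15 (log2). VIM, the brightest gene of the list, had group means of 14.01 and 14.68, so the sum mostly followed VIM and not the list as a whole. Of 12 pan-neuronal genes, 3 rose and 1 fell (NEFL 0.52, ELAVL4 0.45, SNAP25 0.29, MAP2 -0.46), with a summed signal of 18.07 to 18.28 on day 8 and 18.26 to 18.43 on day 15.

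Markers of other transmitters moved as well. Of 4 cholinergic genes 2 rose, among them the vesicular acetylcholine transporter SLC18A3 (1.11, limma adjusted p = 1.53e-05), and the summed signal of the list went from 10.90 to 11.31 on day 8 to 12.15 to 12.18 on day 15. That sum mostly followed SLC18A3 (group means 11.02 and 12.13). The glutamatergic SLC17A6 (-0.45) and the GABAergic SLC32A1 (-0.60) fell, 1 of 2 and 1 of 3 genes tested. Of the 3 noradrenergic genes tested, DBH fell, and the summed signal of the list went from between 7.05 and 7.35 to between 5.92 and 6.27. The fall of that sum followed DBH (group means 6.625 and 4.01). Of 5 oligodendrocyte genes tested OLIG1 fell, by 5.16, and the summed signal went from between 12.54 and 12.67 to between 8.19 and 8.60. The fall of that sum followed OLIG1 (group means 12.59 and 7.42). None of the 4 serotonergic, 5 astrocyte and 4 microglial genes tested passed, and no astrocyte or microglial gene was well above background on all 24 arrays, with the astrocyte marker GFAP on 1.

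The enzymes and regulators around the members changed in both directions. Of 14 further genes of tetrahydrobiopterin and dopamine metabolism tested, 2 rose and 2 fell in DMSO. GCHFR, the feedback regulator of GCH1, rose by 1.71 (SE 0.12, limma adjusted p = 2.91e-09), and MAOA, which breaks down monoamines, rose by 1.82 (SE 0.14, limma adjusted p = 2.02e-08). DBH, which turns dopamine into noradrenaline, fell by 2.61 (SE 0.15, limma adjusted p = 2.49e-10) and was well above background on 1 of 3 day 15 arrays, and PCBD1, which regenerates the cofactor, fell by 0.36 (limma adjusted p = 0.00743).

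Of 17 other midbrain regulators tested, 2 rose and 4 fell, the largest of these changes being that of OTX2, a midbrain patterning factor, which fell by 3.70 (SE 0.22, limma adjusted p = 5.41e-10). PITX3, a further regulator of dopaminergic neurons that was singled out after its values were seen, was well above background on all 24 arrays and rose by 0.46 (SE 0.16, limma adjusted p = 0.0406). Of 14 GDNF receptor and dopaminergic marker genes tested, 5 rose and 3 fell. The GDNF receptor genes RET and GFRA1 went opposite ways, at 1.22 (SE 0.10) and -0.76 (SE 0.08), and the neurotensin receptor NTSR1 was at -4.05 (SE 0.29). None of the 5 dopamine receptor genes passed.

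The second set of comparisons asked whether rotenone changed the genes right after exposure, each dose and time against DMSO on day 8. The 3 comparisons share the same DMSO arrays. None of the 10 members passed in any of them, while 9.48% of all genes did with 100 nM for 24 h, 8.02% with 50 nM for 24 h and 5.52% with 50 nM for 12 h. At an unadjusted p under 0.05 in limma there were 2 members with 100 nM for 24 h (20.6% of all genes), 1 with 50 nM for 24 h (19.6%) and 2 with 50 nM for 12 h (16.8%), which were EN1 in each and NR4A2 in the first and the last. The median log2 difference of the members was 0.14 with 100 nM, beside -0.02 over all genes.

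TH gave values for rotenone that were at or above those of DMSO on average, without passing. Against 9.70, 9.87 and 9.78 in DMSO it read 9.91, 10.29 and 10.22 with 100 nM for 24 h, a difference of 0.36 (SE 0.23, 95% interval -0.13 to 0.84, limma adjusted p = 0.45) although the arrays did not overlap, as held in that direction for 12.6% of all genes. It read 9.66, 10.16 and 10.18 with 50 nM for 24 h (0.22, limma adjusted p = 0.727) and 10.34, 9.73 and 9.41 with 50 nM for 12 h (0.05, limma adjusted p = 0.971), both overlapping DMSO. SLC6A3 read 8.83, 8.28 and 7.85 with 100 nM for 24 h and differed from DMSO by 0.10 (limma adjusted p = 0.912). Its arrays overlapped those of DMSO, and with 50 nM for 24 h the difference was 0.37 (limma adjusted p = 0.536). The other enzymes and transporters with 100 nM were GCH1 at 0.24, DDC at 0.13, ALDH1A1 at 0.22 and SLC18A2 at -0.04, with adjusted p between 0.62 and 0.969. The 2 DDC probes again had opposite signs, with the NM_000790 probe at -0.25 (limma adjusted p = 0.799) and the other, well above background on 0 of 3 arrays in both groups, at 0.50.

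EN1, which encodes the survival and patterning factor Engrailed-1, was a member whose call against DMSO right after exposure depended on how the data were processed. It was measured by 1 probe, so no other probe of the gene could be compared. It read 9.31, 9.42 and 9.13 in DMSO, 8.78, 9.12 and 8.67 with 100 nM for 24 h, 8.99, 9.05 and 8.60 with 50 nM for 24 h, and 8.73, 8.93 and 8.60 with 50 nM for 12 h. Every rotenone array was below every DMSO array, as held for 15.8%, 15.6% and 13.1% of all genes. The differences were -0.43 (95% interval -0.81 to -0.04, limma adjusted p = 0.177), -0.40 (95% interval -0.78 to -0.02, adjusted p = 0.222) and -0.53 (95% interval -0.91 to -0.15, adjusted p = 0.109), so that none passed.

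Each replicate number was hybridised on its own slide, and with the slide as a replicate block in place of batch correction EN1 passed in all 3 comparisons. Those differences were -0.41 (limma adjusted p = 0.0153) with 100 nM for 24 h, -0.41 (adjusted p = 0.0185) with 50 nM for 24 h and -0.52 (adjusted p = 0.00579) with 50 nM for 12 h, where 10.2%, 8.66% and 6.06% of all genes passed. Within slides 1, 2 and 3, EN1 differed from DMSO by -0.52, -0.30 and -0.45 with 100 nM for 24 h, by -0.31, -0.37 and -0.53 with 50 nM for 24 h, and by -0.57, -0.49 and -0.53 with 50 nM for 12 h. It was lower on 3 of 3 slides in each condition, against the same DMSO array each time. NR4A2 was also lower on 3 of 3 slides with 100 nM for 24 h and with 50 nM for 12 h. The share of all genes lower on every slide is not given.

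From the normalized values that the authors deposited EN1 also passed (-0.40, -0.39 and -0.51, limma adjusted p = 0.0065, 0.00807 and 0.00165), where 14.5%, 12.9% and 9.6% of all genes passed. Arrays were left out only in the main fit, where EN1 had not passed with all arrays. With 1 array left out at a time, that fit did not call it either (-0.56 to -0.33, -0.49 to -0.26 and -0.62 to -0.45). Whether the calls from the slide block and the authors' values hold with an array left out was not tested. On day 15 EN1 read 8.60, 8.99 and 8.86 with 100 nM beside 8.82, 9.07 and 8.49 in DMSO, and the groups overlapped. The within-slide differences then ran from -0.21 to 0.38 over the 3 rotenone conditions and had both signs.

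**Figure D4:**
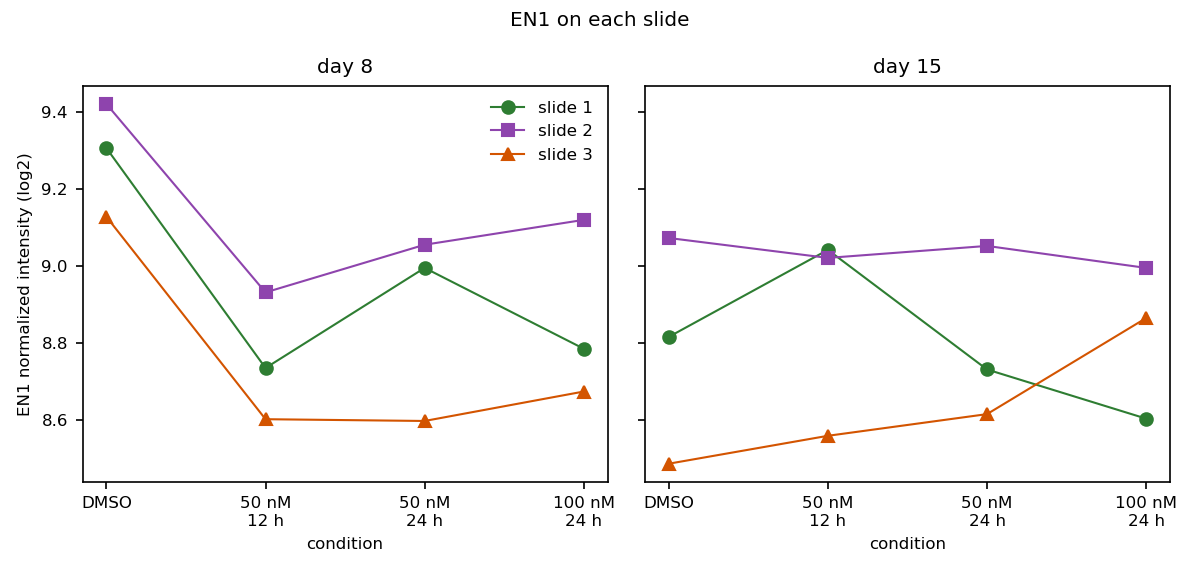
EN1 normalized log2 intensity by condition on days 8 and 15, with a line for each of the 3 slides (1 array per slide and group). On day 8 all 3 lines lie lower in each rotenone condition than in DMSO, by 0.30 to 0.57, and on day 15 they do not run in one direction.

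The remaining transcription factors did not pass on day 8. NR4A2 read 5.82, 5.86 and 5.92 with 100 nM for 24 h beside 5.91, 6.43 and 6.21 in DMSO, a difference of -0.32 (limma adjusted p = 0.231), and -0.32 (limma adjusted p = 0.283) with 50 nM for 12 h. LMX1B differed by 0.16 (limma adjusted p = 0.832) with 100 nM. FOXA2 differed by 0.44 with 100 nM, 0.46 with 50 nM for 24 h and 0.61 with 50 nM for 12 h (SE 0.50 in each, limma adjusted p = 0.727, 0.729 and 0.633). These FOXA2 differences were as large as those of EN1, with wider intervals (-0.60 to 1.48 with 100 nM) and arrays that overlapped those of DMSO. FOXA2 read 3.67 on DMSO replicate 3, where it was not well above background, beside 4.69 and 4.97 on the others. With 1 array left out at a time the differences fell as low as 0.06, 0.07 and 0.22, in the same order. In each 24 h rotenone group FOXA2 was well above background on 1 of 3 arrays.

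**Figure D5:**
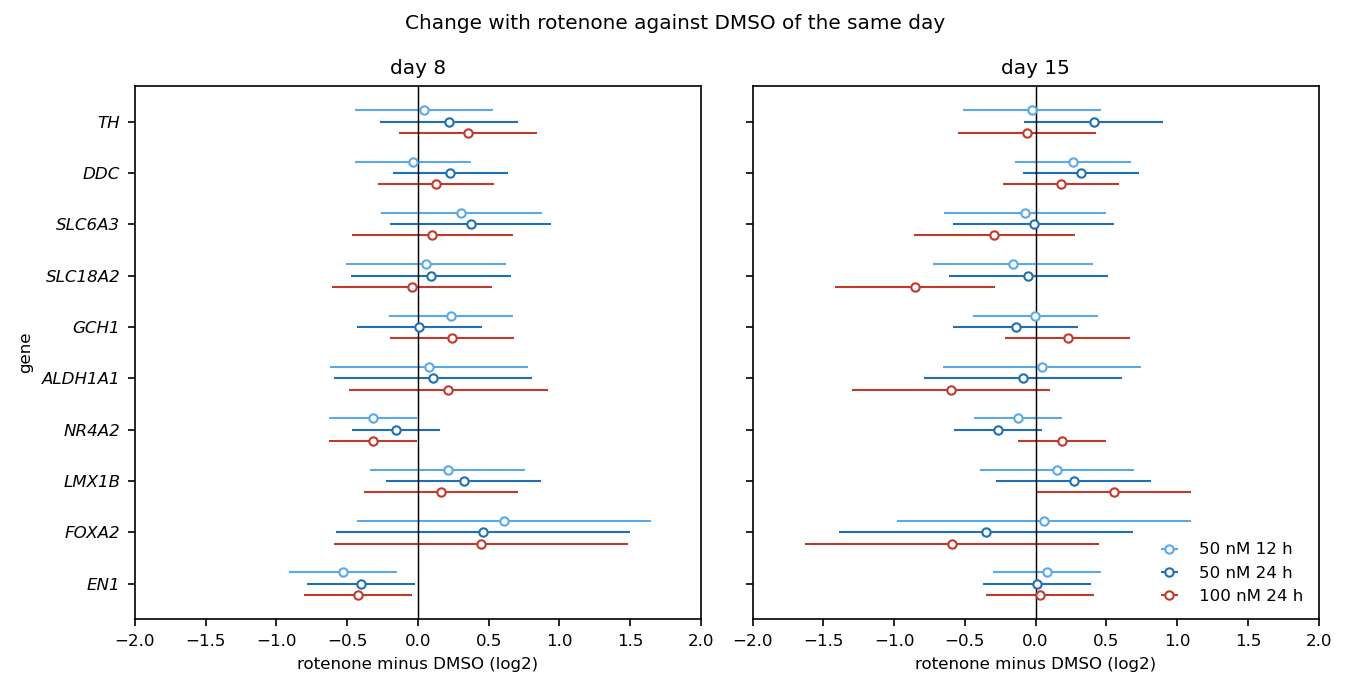
Difference from DMSO of the same day (log2, with 95% intervals) of the 10 genes with 50 nM 12 h, 50 nM 24 h and 100 nM 24 h rotenone, on day 8 (left) and day 15 (right). No gene reached an adjusted p under 0.05 on either day, and on day 8 the EN1 differences of -0.43, -0.40 and -0.53 are the ones whose intervals lie below 0 in all 3 conditions.

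Around the members, other genes of the pathway did change with rotenone on day 8. Of 14 tetrahydrobiopterin and dopamine metabolism genes tested, 2 rose and 2 fell with 100 nM for 24 h. PCBD1 rose by 0.64 (SE 0.09, limma adjusted p = 0.000146) and GCHFR by 0.69 (SE 0.12, limma adjusted p = 0.000708), while DBH fell by 0.78 (limma adjusted p = 0.00207) and MAOA fell by 0.47 (limma adjusted p = 0.0428). With 50 nM for 24 h 2 rose and 2 fell, PCBD1 by 0.59 and GCHFR by 0.59 upward, and with 50 nM for 12 h MAOA alone of the 14 passed (-0.56, limma adjusted p = 0.0242). Of 14 GDNF receptor and dopaminergic marker genes, 1 rose and 1 fell with 100 nM, namely the membrane protein DLK1 (1.27, SE 0.14, limma adjusted p = 1.12e-05) and the neurturin receptor GFRA2 (-0.73, limma adjusted p = 0.0131). DLK1 also rose with 50 nM for 24 h (SE 0.14, limma adjusted p = 0.000159) and by 0.77 with 50 nM for 12 h.

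Of 17 other midbrain regulators, 1 rose and 1 fell with 100 nM, which were RXRA (0.53, limma adjusted p = 0.00567), a nuclear receptor that pairs with NURR1, and the proneural factor NEUROG2 (-0.35, limma adjusted p = 0.0326). RXRA also rose with 50 nM for 24 h (0.76) and for 12 h (0.59), and NEUROD1 rose with 50 nM for 24 h (0.60, limma adjusted p = 0.0125). Of the 5 dopamine receptor genes none passed with either 24 h exposure, and DRD2 did with 50 nM for 12 h (0.32, limma adjusted p = 0.0282). Of 12 pan-neuronal genes 3 fell with 100 nM (MAP2 -0.57, ELAVL4 -0.51, SNAP25 -0.30), and their summed signal ran from 18.03 to 18.05 beside 18.07 to 18.28 in DMSO. Of 10 progenitor and proliferation genes, VIM rose by 0.42 and HES5 fell by 0.73. Whether these markers bear on the EN1 values was not tested.

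The dose and the duration were compared directly on day 8. Exposures of 12 h and 24 h cannot share both start and collection hour, and the labels give the DMSO group no exposure time. Duration therefore cannot be told apart from hours in culture, also where 12 h of rotenone was set against DMSO. Between 100 nM and 50 nM at 24 h no member passed in limma and 0% of all genes did, with 0 members and 4.17% of all genes at an unadjusted p under 0.05. The difference was 0.14 (95% interval -0.35 to 0.63) for TH, -0.27 (95% interval -0.84 to 0.30) for SLC6A3 and -0.02 (95% interval -0.40 to 0.36) for EN1. Between 24 h and 12 h of 50 nM no member passed, beside 0.537% of all genes, with 0 members and 10.9% of all genes at an unadjusted p under 0.05. The DDC average was 0.26 above that of 12 h without overlap of the arrays (limma adjusted p = 0.716), where 8.73% of all genes were higher without overlap. The NM_000790 probe of DDC differed by -0.08 (limma adjusted p = 0.995), and the other probe, at 0.60, stood well above background on none of the arrays compared.

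The third set asked what remained after washing out and a further week. On day 15 none of the 10 members passed against DMSO in any of the 3 conditions, and 0% of all genes passed in limma. At an unadjusted p under 0.05 there were 2 members with 100 nM for 24 h (7.21% of all genes), 0 with 50 nM for 24 h (3.28%) and 0 with 50 nM for 12 h (3.47%). TH read 6.71, 6.43 and 7.19 with 100 nM beside 6.71, 6.84 and 6.96 in DMSO, a difference of -0.06, and -0.03 with 50 nM for 12 h. With 50 nM for 24 h it read 7.43, 6.94 and 7.37 (0.41, limma adjusted p = 1). The TH arrays of the first 2 comparisons overlapped those of DMSO, and in the last the lowest rotenone value lay just under the highest DMSO value.

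SLC6A3 with 100 nM read 5.86, 5.98 and 5.74, all below the 6.03, 6.22 and 6.20 of DMSO, a difference of -0.29, as held for 4.84% of all genes. The DDC average was 0.18 above DMSO without overlap, as held for 3% of all genes, but its probes disagreed. The NM_000790 probe differed by -0.48 (limma adjusted p = 0.719), and the probe that was well above background on 0 of 3 DMSO and 1 of 3 rotenone arrays by 0.84 (limma adjusted p = 0.723). LMX1B read 5.98, 6.56 and 6.61 beside 6.04, 5.86 and 5.61 (0.55, limma adjusted p = 0.689). The LMX1B probe detected on all 24 arrays differed by 0.05 (limma adjusted p = 0.988), and the dim probe, well above background on 1 of 3 DMSO and 2 of 3 rotenone arrays, by 1.05 (limma adjusted p = 0.719). SLC18A2 read 3.28, 4.31 and 3.59 beside 4.91, 4.55 and 4.28 (-0.85, limma adjusted p = 0.557), but it was well above background on 0 of 3 arrays with 100 nM and 1 of 3 with DMSO. That 1 array was DMSO replicate 1, whose scan name goes against its label, and without it the difference was -0.69 (limma adjusted p = 0.594) with neither group well above background. Over the processing alternatives the SLC18A2 value ran from -0.85 to -0.14, so no fold is given for it. FOXA2 differed by -0.59 and, without replicate 3 of 100 nM, by 0.06. Without DMSO replicate 1 of day 15 the count of members called was still 0 in each of the 3 comparisons.

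Whether the rotenone difference itself changed between days was tested as an interaction. None of the 10 members passed with 100 nM for 24 h (2.44% of all genes), 50 nM for 24 h (2.16%) or 50 nM for 12 h (1.08%) in limma. At an unadjusted p under 0.05 there were 2 members (14.4% of all genes), 0 (13.9%) and 1 (11.3%). The smallest adjusted p with 100 nM was that of NR4A2 (0.51, 95% interval 0.06 to 0.95, limma adjusted p = 0.263). For EN1 with 50 nM for 12 h the value was 0.61 (95% interval 0.07 to 1.15, limma adjusted p = 0.354). For TH with 100 nM it was -0.41 (SE 0.33, limma adjusted p = 0.638).

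The members' patterns over the 8 group means are given as a description, since the groups share slides and 4 groups lie on each day. TH and SLC6A3 had a Pearson correlation of 0.991, and NR4A2 ran opposite to both (-0.992 with TH and -0.990 with SLC6A3). Among the 12922 genes well above background on all 24 arrays, those most like TH were PADI2 (0.999), ZNF561 (0.999) and SESN3 (0.999). Those most like SLC6A3 were DSCAML1, TRMT9B and SPON2 (0.998 to 0.999), and those most like NR4A2 were MIMT1, MMD and MGARP (0.996 to 0.997). GCH1 was closest to ADAMTSL5, ASCC1 and LINC01732 (0.982 to 0.983), LMX1B to ZBTB7C, C8G and USP32 (0.989 to 0.992), EN1 to CPT2, H2BC21 and GMPR2 (0.971 to 0.978), and DDC to PSMB2, MYH9 and IL4R (0.945 to 0.983).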

How the data were processed

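RNA from 24 LUHMES samples was labelled with Cy3 and hybridised to Agilent SurePrint G3 v2 8x60K arrays, 8 on each of 3 slides. The authors deposited scanner files with spot intensity (Feature Extraction 11.5.1.1 for slides 1 and 3 and 12.0.0.7 for slide 2, per the file headers) and a table of normalized log2 values. The labels say that the samples of slide 1 need batch correction. Each slide held 1 replicate of every group.

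The median signal was background-corrected with normexp (offset 0) in limma 3.58.1 (R 4.3.3), quantile-normalized and corrected for slide 1 against slides 2 and 3 by an own version of ComBat with the groups as covariates, which was tested on simulated data. Of 62976 spots, those brighter than 1.1 times the 95th percentile of 308 negative controls on at least 3 arrays were kept (48316 of 50599 unique probes). Probes were named by RefSeq accession (30275 probes, 21239 genes, probes averaged), and promoters were taken from the RefSeq table (GRCh38.p14); the array's own design names an older build, and probe coordinates were not used. Tests were limma contrasts in 1 fit of all 24 arrays, two-sided, with Benjamini-Hochberg adjustment over all genes at 0.05. The arrays' number, 3 per group, limits the precision. Values of a probe well above background on no array of a group are bounds.

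Before batch correction, samples with the same replicate number deviated together in all 84 pairs (lowest correlation 0.171, median 0.458, against a median of -0.354 in 168 other pairs), so the numbers pair the samples, by slide. Of all spots, 67.3 to 82.4% per array were well above background for slide 1, beside 53.6 to 60.8% for the second and 50.9 to 62.4% for the third.

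The members and gene lists were chosen with earlier results of these data known. Named genes were the members, per further list and comparison at most the 4 with the smallest p among those that passed, and the 3 closest patterns of each member. Alternatives were the processed signal, an offset of 50, percentile scaling, no batch correction, a slide block, a fit of the compared groups alone, slides 2 and 3 alone, the authors' values, 2 filters, 1 probe per gene, and leaving out each array.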

Additional observations from a re-analysis of the deposited data

How the results depend on the processing

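Over 11 processing alternatives, TH, SLC6A3 and NR4A2 were called between the days in DMSO in all 11, GCH1 in 9, LMX1B in 7, FOXA2 in 7, EN1 in 5 and DDC in 3. No result changed direction while called. In this section the share of all genes called under each setting is not given beside the counts. A count above or below that of the main fit is therefore not read as a result about the members. The count of members called between the days in DMSO, 5, was 8 with an offset of 50, 8 under the stricter filter (a probe had to be well above background throughout some group), and 3 with slides 2 and 3 only, and ran from 3 to 5 with 1 array left out (3 without DMSO replicate 3 of day 8). The replicate block (slide) called 7 there, and its values for EN1 stand beside the EN1 results; it called 1 member, EN1, in each of the 3 day 8 comparisons with DMSO, against 0, and, beside the calls it added between the days with 50 nM for 24 h, it changed no other call of a member.

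The authors' deposited values also called 1 member, EN1, in each of those 3 comparisons, and 1, EN1, in the interaction for 50 nM 12 h. Scaling the processed signal by its 75th percentile called 1 with 100 nM for 24 h on day 8, GCH1 (0.73, limma adjusted p = 0.042), and moved the median of all genes there by 0.10. Between the days with 50 nM for 12 h (3), the count was 5 with the processed signal, 6 with percentile scaling, 5 with the authors' values, 5 with the stricter filter and 5 with 1 probe per gene, and 3 to 4 with 1 array left out. With 50 nM for 24 h (3) it was 5 with percentile scaling, 5 with the replicate block, 5 with the authors' values and 6 with the stricter filter, and 3 to 4 with 1 array left out, and with 100 nM (5) it was 4 to 6. All other comparisons stayed at 0 with any 1 array left out. The cause of these shifts was not tested, and the share of all genes called under each setting is not given beside them. There were 3 arrays per group, and SLC18A2, ALDH1A1, FOXA2 on some arrays and 1 probe each of DDC and LMX1B were near background, so their values are the least certain.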
